A study of Mus musculus with 2 samples.

Results

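The cytosolic ribosomal protein genes are described here in enriched mouse blood. They were the genes whose symbol starts with Rpl or Rps followed by a digit, together with Rpsa, Rplp0, Rplp1 and Rplp2, without pseudogene symbols and without the Rps6k kinases. That rule found 86 of the 32285 genes in the files: 52 of the large subunit, 33 of the small subunit, and Rps19bp1, which binds a ribosomal protein and is not one itself. The samples were 2 10x Chromium libraries of whole blood, replicate 1 and replicate 2. The mice were wild type and had undergone burn/tenotomy, in which a skin burn is joined with a cut tendon. Before barcoding, the blood passed through the iChip, a microfluidic sorter, and the labels name the cells as cMPCs, circulating mesenchymal progenitor cells, and blood cells. Both libraries had the same genotype and treatment, so every comparison is between kinds of barcode and none is between conditions. The labels do not tie the replicates to different animals, and their spread may thus be technical.

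The ribosome is built from a large and a small subunit, each a scaffold of ribosomal RNA with many small proteins, and nearly all of these proteins are needed in equal numbers. Messenger RNAs of ribosomal proteins are abundant in growing cells, and many start with a run of pyrimidines, the terminal oligopyrimidine or TOP motif, through which their translation is controlled. A red cell leaves the marrow as a reticulocyte, which has lost its nucleus, still translates globin with the ribosomes it inherited, and clears ribosomes and RNA as it matures. Inherited loss of a copy of a ribosomal protein gene causes Diamond-Blackfan anaemia, a failure of red cell production.

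Barcodes were divided by their content. In globin-dominated barcodes at least 50% of the unique molecular identifiers (UMIs, each marking 1 captured RNA molecule) were from haemoglobin genes. In mt-rich barcodes over 80% were from mt- genes, which are encoded by the mitochondrial genome. All others formed the third class. Replicate 1 held 474 globin-dominated, 366 mt-rich and 168 other barcodes (1008 in all, 3967318 UMIs), and replicate 2 held 373, 285 and 191 (849 in all, 3329292 UMIs). The libraries shared 0 barcode sequences. Of 12 further red cell markers such as Alas2, 12 were detected in the globin-dominated and in the other barcodes of each library, and 7 in mt-rich barcodes. Summed, they stood at 872 and 888 per 10000 UMIs outside haemoglobin and mt- genes in globin-dominated barcodes. The sums were 13.1 and 11.8 in mt-rich and 18.7 and 92.0 in other barcodes. Those UMIs outside haemoglobin and mt- genes are called remaining UMIs below. They numbered 372639 and 284201 in the globin-dominated sums, 16014 and 15242 in the mt-rich sums and 296314 and 229417 in the other sums.

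Ribosomal protein genes gave 32869 UMIs in all, and their summed share differed between the classes on each scale, but not in the same order. Of the remaining UMIs they made up 3.13% and 3.32% in globin-dominated barcodes (replicates 1 and 2), 10.9% and 9.90% in mt-rich barcodes and 1.66% and 1.58% in other barcodes. The means were 3.22% ± 0.136, 10.4% ± 0.709 and 1.62% ± 0.0589 (SD, n = 2), and the 3 classes did not overlap. Against other barcodes the globin-dominated share was 1.88 and 2.10 times as high and the mt-rich share 6.57 and 6.28 times. Of all UMIs, haemoglobin and mt- genes included, other barcodes moved from the lowest to the highest share, while mt-rich stayed above globin-dominated barcodes: 0.354% and 0.342% in globin-dominated, 0.549% and 0.547% in mt-rich, and 1.36% and 1.23% in other barcodes. No test was run on these summed shares. Counting error alone was small (exact binomial 95% interval 3.07 to 3.18% for the globin-dominated share of replicate 1).

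A single non-coding locus took much of the remaining UMIs. Gm42418, which overlaps ribosomal RNA sequence, made up 47.9% and 44.3% of them in globin-dominated, 15.7% and 13.8% in mt-rich, and 16.4% and 35.8% in other barcodes. Without Gm42418 the ribosomal protein share was 5.98% ± 0.0334 in globin-dominated, 12.2% ± 1.02 in mt-rich and 2.22% ± 0.332 in other barcodes (SD, n = 2), in the same order. Without Rpl41, the ribosomal protein gene with most UMIs, the globin-dominated share was 2.46% and 2.67% of the remaining UMIs and stayed above that of other barcodes by 1.53 and 1.74 times.

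**Figure D1:**
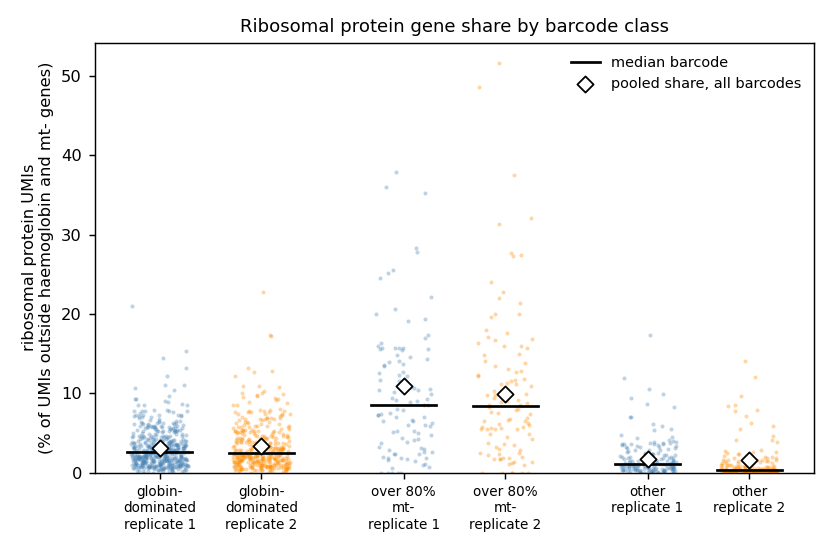
Ribosomal protein UMIs as a percent of the UMIs outside haemoglobin and mt- genes, for each barcode with at least 50 such UMIs (points), with the median barcode (line) and the share of the pooled sum over all barcodes (diamond), by class and replicate. The pooled shares were 3.13% and 3.32% in globin-dominated, 10.9% and 9.90% in mt-rich and 1.66% and 1.58% in other barcodes; of all UMIs instead, the other barcodes were highest (1.36% and 1.23%).

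The make-up of the ribosomal protein UMIs, which needs no scaling between sums, differed most in globin-dominated barcodes. A UMI marks a molecule, so its number does not grow with transcript length. Rpl41, which encodes the smallest ribosomal protein and bridges the subunits, held 2460 of 11645 ribosomal protein UMIs in globin-dominated barcodes of replicate 1 (21.1%) and 1850 of 9429 in replicate 2 (19.6%). It held 43 and 44 UMIs (2.46% and 2.92%) in mt-rich barcodes and 150 and 112 UMIs (3.05% and 3.09%) in other barcodes. Both globin-dominated sums thus lay far above the other 4. With Rplp0, Rps29, Rplp2 and Rplp1 it made up 40.2% and 37.6% of the ribosomal protein UMIs of globin-dominated barcodes. Only 9 and 10 genes held 50% of those UMIs, where it took 26 and 25 genes in mt-rich and 24 and 25 in other barcodes.

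No gene stood out in this way elsewhere. The leading gene of mt-rich barcodes was Rplp1, a protein of the stalk that draws translation factors to the large subunit, at 3.49% and 3.78% of the ribosomal protein UMIs. In other barcodes it was Rpsa, a small subunit protein also known as the laminin receptor, at 4.13% and 3.87%, while it held 0.447% and 0.424% in globin-dominated barcodes. Over the 86 genes, Spearman's rho of the UMIs between replicates was 0.988 in globin-dominated, 0.820 in mt-rich and 0.839 in other barcodes. Between classes, with the replicates summed, it was 0.621 for globin-dominated with other barcodes, 0.578 for globin-dominated with mt-rich and 0.769 for mt-rich with other. These are descriptions across genes of the same libraries, which are not independent, and the mt-rich sums had the fewest UMIs (1746 and 1509 of these genes).

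**Figure D2:**
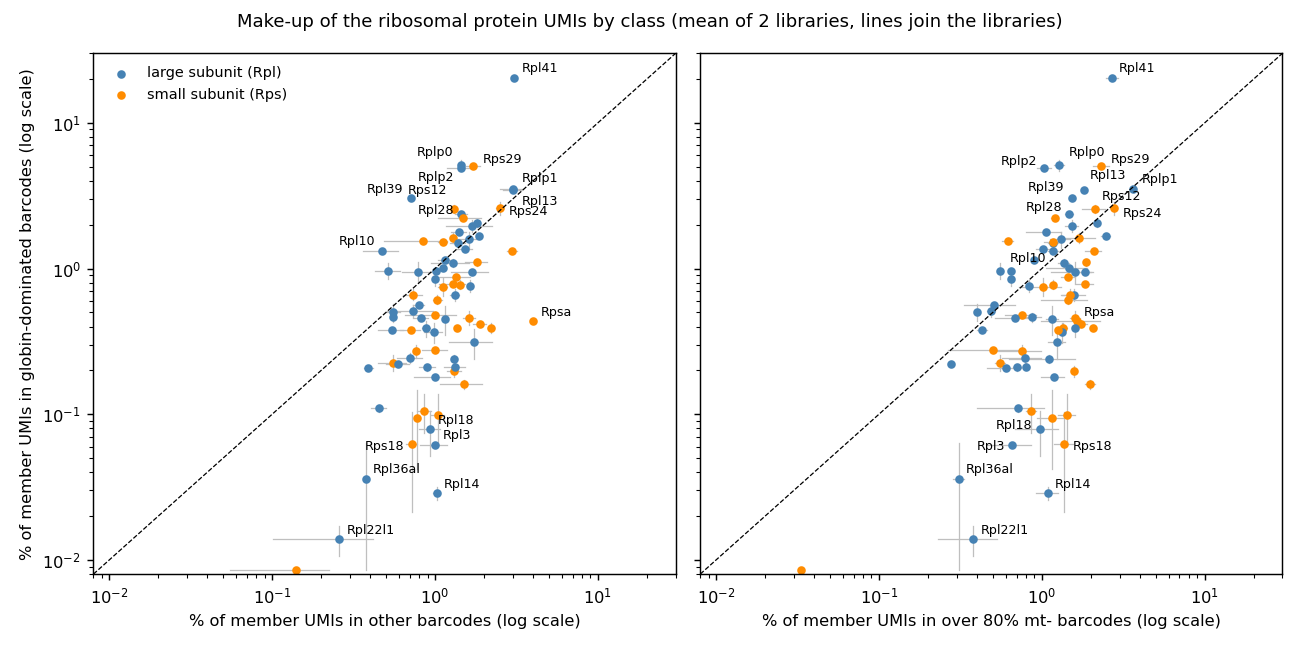
Share of the ribosomal protein UMIs taken by each gene in globin-dominated barcodes (vertical, percent, log scale) against other barcodes (left) and mt-rich barcodes (right); points are means of the 2 libraries, grey lines join the libraries, the dashed line marks equal shares, and genes with 0 UMIs in both libraries of a class are not drawn. Rpl41 lies highest (21.1% and 19.6% in globin-dominated barcodes), and Rpsa, Rpl14 and Rpl22l1 lie far below the line in the left panel.

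Single genes were then compared between globin-dominated and other barcodes, per remaining UMI. Of the 86 genes, 81 had at least 10 UMIs over all sums and were tested with edgeR's quasi-likelihood test, with Benjamini-Hochberg adjustment over all 7407 genes tested. At an adjusted p under 0.05, 19 of the 81 were higher in globin-dominated barcodes and 17 lower, where 3.96% of all genes tested were called higher and 78.8% lower. The members' median log2 fold change was 0.18, that of all genes -5.25, and each of the 81 members exceeded the value of the median gene. All 19 and all 17 differed in the same direction in both libraries, from which the calls themselves were made. Of all 81, called or not, 42 were higher and 31 lower in both libraries. The split turned with the scaling: per UMI of all genes it was 0 higher and 72 lower, with TMM factors (0.185 to 2.64) 45 and 0, with RLE factors 48 and 1, and without Gm42418 24 and 11. With a haemoglobin limit of 70% it was 29 and 15, and with no filter on low counts 12 and 16. With the first 4 of these scalings the median of all genes was -7.59, -4.14, -4.49 and -4.96, and all 81 stayed above it. The test took its spread from all genes together, on 2 residual degrees of freedom, so how far the replicates of 1 gene lie apart has little weight in its p-value.

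The genes with the largest rise per remaining UMI also took a larger part of the ribosomal protein UMIs. The order of the genes is nearly the same on either scale by construction, since only the total of each sum changes. Rpl41 stood at 66.0 and 65.1 UMIs per 10000 remaining UMIs in globin-dominated barcodes and at 5.06 and 4.88 in other barcodes, a log2 fold change of 3.72 (SE 0.61, edgeR adjusted p = 2.04e-08). Rpl39, whose protein lines the exit tunnel of the large subunit, stood at 9.02 and 10.6 against 1.22 and 1.09 (log2 fold change 3.08, SE 0.61, edgeR adjusted p = 3.18e-06). For neither gene did the groups overlap, and per UMI of all genes both kept their direction without a call (log2 fold changes 0.83 and 0.19).

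Among the stalk proteins, Rplp0, the base of the stalk, stood at 17.3 and 15.5 against 2.29 and 2.35 per 10000 remaining UMIs (log2 fold change 2.81, edgeR adjusted p = 1.33e-05). Rplp2 stood at 15.1 and 16.4 against 1.96 and 2.70 (log2 fold change 2.76, edgeR adjusted p = 1.83e-05). Rplp1 differed less, at 11 and 11.7 against 4.15 and 5.49 (log2 fold change 1.24, edgeR adjusted p = 0.0361). All 3 stalk genes were thus called higher than in other barcodes, with no overlap between these classes. Rps29, a small zinc-binding protein of the small subunit, stood at 16.3 and 15.9 against 3.14 and 2.44 (log2 fold change 2.53). Rpl10, which joins the large subunit late in its assembly and lies near the catalytic centre, stood at 4.02 and 4.50 against 0.979 and 0.567 (log2 fold change 2.46, edgeR adjusted p = 0.00016). Per UMI of all genes Rplp0, Rplp2, Rps29 and Rpl10 changed sign (-0.07, -0.13, -0.36 and -0.43), with no call.

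The other 13 genes called higher included Rps2, Rps12, Rpl35, Rpl28, Rps9, Rps14, Rpl38, Rps15a, Rpl34, Rplp1, Rpl13 and Rpl37a, with log2 fold changes from 1.98 for Rps2 down to 1.18 for Rpl37a. Just outside the threshold lay Rpl21 (1.12, edgeR adjusted p = 0.0574) and Rps24 (1.04, edgeR adjusted p = 0.0765). Rpl13 and Rps24 are among the 10 genes with most UMIs. Rpl13 held 3.47% and 3.42% of the ribosomal protein UMIs of globin-dominated barcodes and 3.43% and 2.60% of those of other barcodes. Rps24 held 2.87% and 2.34% against 2.38% and 2.63%, and the ranges of both genes overlapped. Rps12 held 2.40% and 2.74% against 1.30% and 1.33%, and Rpl28 held 2.24% and 2.48% against 1.56% and 1.33%.

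At the other end stood genes that were nearly missing from globin-dominated barcodes. Rpl14, a large subunit protein, had 3 and 3 UMIs there, at the floor of 3 UMIs (0.0805 and 0.106 per 10000 remaining UMIs), and 53 and 35 UMIs in other barcodes. Its level over both libraries was 0.0546 times that of other barcodes (exact 95% counting interval 0.0195 to 0.124), and the fitted log2 fold change was -4.09 (edgeR adjusted p = 7.19e-07). Rpl3, which lies by the catalytic centre of the large subunit, had 7 and 6 UMIs against 40 and 43 (log2 fold change -2.95, edgeR adjusted p = 0.000113). Both genes were low in each globin-dominated sum and did not overlap with the other sums.

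Rpl18 had 6 and 10 UMIs in globin-dominated barcodes against 39 and 39 in other barcodes (log2 fold change -2.59). Rps18, of the head of the small subunit, had 12 and 2 against 38 and 24 (log2 fold change -2.57, edgeR adjusted p = 0.000609). Rps18 differed between the globin-dominated replicates (0.322 and 0.0704 per 10000 remaining UMIs), and with TMM factors its sign changed (0.02). Rpsa, the leading gene of other barcodes, stood at 1.39 and 1.41 per 10000 remaining UMIs against 6.85 and 6.10 (log2 fold change -2.20, edgeR adjusted p = 0.000576). The remaining genes called lower included Rpl22l1, Rpl36al, Rps27, Rps4x, Rps25, Rps27a, Rpl6, Rps15, Rpl13a, Rpl36 and Rpl9. With TMM factors none of the 17 stayed called lower.

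**Figure D3:**
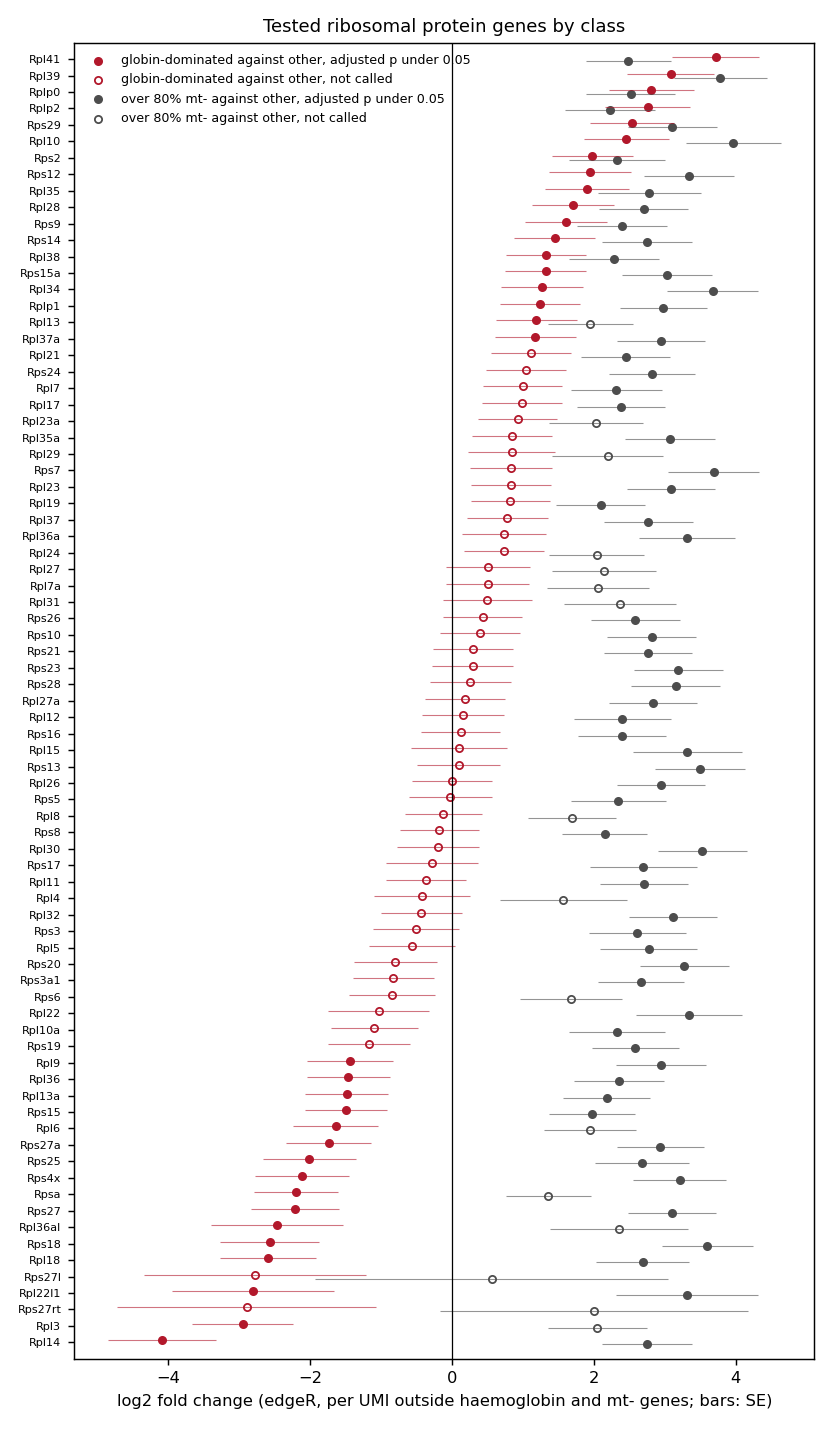
Log2 fold change per UMI outside haemoglobin and mt- genes for the tested genes reported here (edgeR, bars are SE), ordered by globin-dominated against other barcodes (red) with mt-rich against other barcodes beside it (grey); filled points have an adjusted p under 0.05. Globin-dominated values run from 3.72 for Rpl41 to -4.09 for Rpl14, while all mt-rich values are above 0; per UMI of all genes 0 of the 81 were called higher in either comparison.

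The start regions of 10 of these genes are shown because the members at both ends of the comparison belong to a gene family known for a pyrimidine run at the start of its transcripts. Each sequence is 30 bases of mouse build GRCm38.p6 on the gene's strand, 5′ to 3′, with 15 bases before the RefSeq start and 15 from the start on. Capitals mark the longest run of at least 5 letters C or T that begins with C within 10 bases of the start, and a sequence with no capitals has none. The first 5 genes were the highest in globin-dominated barcodes and the last 5 were among the lowest. Rps29 and Rpl3 had no entry in the RefSeq promoter table.
Rpl41, chr10:128549154-128549183, minus strand: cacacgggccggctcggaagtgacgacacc
Rpl39, chrX:37085208-37085237, minus strand: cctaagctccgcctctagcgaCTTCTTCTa
Rplp0, chr5:115559452-115559481, plus strand: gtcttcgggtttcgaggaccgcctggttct
Rplp2, chr7:141447636-141447665, plus strand: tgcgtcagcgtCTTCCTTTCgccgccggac
Rpl10, chrX:74270801-74270830, plus strand: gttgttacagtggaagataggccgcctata
Rpl14, chr9:120571502-120571531, plus strand: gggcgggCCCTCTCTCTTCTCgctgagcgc
Rpl22l1, chr3:28805493-28805522, plus strand: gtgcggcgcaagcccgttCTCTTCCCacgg
Rpl18, chr7:45718056-45718085, plus strand: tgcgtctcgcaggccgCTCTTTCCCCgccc
Rps18, chr17:33955651-33955680, minus strand: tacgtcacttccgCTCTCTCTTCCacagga
Rpl36al, chr12:69184053-69184082, minus strand: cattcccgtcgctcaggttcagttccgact

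Such a run was in 2 of the 5 high genes (Rpl39 and Rplp2) and in 4 of the 5 low genes (all but Rpl36al). Of the 86 genes, 66 had a RefSeq promoter, and 32 of these (48.5%) held the run, against 9513 of all 32851 promoters in the table (29.0%). It was in 9 of 15 genes called higher in globin-dominated barcodes, 7 of 13 called lower and 13 of 33 not called. A match is only of letters: for 22 of the 66 genes the RefSeq start was within 10 bases of the start of the GENCODE M21 transcript, so for most the window need not hold the start in use. Among the sequences shown this was so for Rplp0 only, and Rpl18 lay furthest, at 2614 bases. Their transcript lengths also overlapped, with a median of 785 bases in the genes called higher, 975 in those called lower and 886 in those not called. The median protein length was 130, 158 and 151 residues, and the shortest, Rpl41 with 25 and Rpl39 with 51, were both among the genes called higher. Over the 81 genes Spearman's rho of the log2 fold change was -0.05 with transcript length, -0.18 with coding length and 0.16 with GC content, given as a description.

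In mt-rich barcodes the ribosomal protein genes moved together. Of the 81 tested, 65 were called higher than in other barcodes per remaining UMI and 0 lower (edgeR; 2.17% and 0.162% of all genes tested), with a median log2 fold change of 2.69 against -1.07 over all genes. At an unadjusted p under 0.05, 78 were higher and 0 lower, and DESeq2 called 69 higher and 0 lower. Per UMI of all genes the split was the opposite, 0 higher and 32 lower, and with TMM factors 0 and 0 (32 higher and 0 lower at an unadjusted p under 0.05). The RLE factors gave 9 and 0, and leaving out Gm42418 40 and 0. With at least 100 detected genes required of a barcode, which leaves 14 and 20 mt-rich barcodes, 0 were called in either direction, with a median of 1.88 and 31 higher at an unadjusted p under 0.05. Under these scalings the median of all genes was -4.94 for all UMIs, -1.80 for TMM and -2.18 for RLE, and all 81 lay above it in each.

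The largest values were those of Rpl10, at 11.9 and 12.5 per 10000 remaining UMIs in mt-rich against 0.979 and 0.567 in other barcodes (log2 fold change 3.97, edgeR adjusted p = 1.01e-06), and of Rpl39, at 17.5 and 14.4 against 1.22 and 1.09 (3.78). Next came Rps7 (3.69), Rpl34 (3.68), Rps18 (3.60) and Rpl30 (3.53). Rps18, nearly missing from globin-dominated barcodes, stood at 16.9 and 11.8 in mt-rich against 1.28 and 1.05 in other barcodes. Rps7 stood at 14.4 and 16.4 against 1.38 and 1.00. Their mt-rich sums rest on few molecules, 19 and 19 UMIs for Rpl10 and 27 and 18 for Rps18, where 3 UMIs were 1.87 and 1.97 per 10000. Per UMI of all genes Rpl39, Rps7, Rpl34, Rps18 and Rpl30 changed sign (-0.14, -0.22, -0.23, -0.32 and -0.39), with no call. Markers of several cell types were present beside them: 16 and 13 of 18 leukocyte markers (summed 96.8 and 79.4 per 10000 remaining UMIs, with Cd3e at 0 in both), 8 and 8 of 9 platelet markers (59.9 and 65.0) and 10 and 10 of 16 mesenchymal markers (99.3 and 80.04, with Pdgfra and Pdgfrb at 0). In other barcodes these lists stood at 254 and 16.7, 22.0 and 20.7, and 19.9 and 47.8, and their part in the result was not tested.

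Set directly against mt-rich barcodes, globin-dominated barcodes had 53 of the 81 genes called lower per remaining UMI and 0 higher (edgeR; 20% and 1.86% of all genes tested), with a median of -2.42 against -2.82 over all genes. The unadjusted p was under 0.05 for 66 lower and 1 higher, and DESeq2 called 59 lower and 1 higher. Most of these calls rest on the scaling: per UMI of all genes 32 were lower and 1 higher, with TMM factors 1 and 1, with RLE factors 7 and 4, and the median of all genes was -1.70, -0.11 and -0.10. With at least 100 detected genes per barcode 12 were lower and 1 higher. The members with a positive value were Rpl41 (1.23, SE 0.58, edgeR adjusted p = 0.111), Rplp2 (0.53) and Rplp0 (0.29), and none was called. Rpl14 was the lowest, at 0.0805 and 0.106 in globin-dominated against 9.99 and 12.5 per 10000 remaining UMIs in mt-rich barcodes, 0.00816 times the level over both libraries (exact 95% counting interval 0.00281 to 0.0196). It was the 1 gene called lower with TMM factors (log2 fold change -3.57, edgeR adjusted p = 0.0153). Rps18 (-6.17), Rpl22l1 (-6.12), Rps4x (-5.32) and Rps27 (-5.31) were also among the lowest. Both comparisons with other barcodes use the same other sums, and this one shares its sums with each of them.

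A fit with the ribosomal protein UMIs as the library size, added after seeing the data, gives each gene's change relative to the rest of the family. In globin-dominated against other barcodes, 6 genes rose relative to the others: Rpl41 (2.73), Rpl39 (2.09), Rplp0 (1.82), Rplp2 (1.77), Rps29 (1.54) and Rpl10 (1.47), with edgeR adjusted p from 0.000136 to 0.0192. On this scale 30 genes fell, among them Rpl14 (-5.06), Rpl3 (-3.93), Rpl22l1 (-3.77), Rpl18 (-3.59), Rps18 (-3.52) and Rpsa (-3.19). Of all genes tested, 2.35% were called higher and 86.1% lower on this scale. Rpl41 is itself part of this library size, so its rise by itself lowers the values of the other genes. Against mt-rich barcodes, Rpl41 (2.92), Rplp2 (2.22) and Rplp0 (1.99) rose relative to the others and 22 fell (3.16% and 7.99% of all genes tested). Between mt-rich and other barcodes edgeR called 0 of the 81 members in either direction, beside 0.473% higher and 33.4% lower over all genes tested. At an unadjusted p under 0.05, 0 members were higher and 1 lower by edgeR, and the members' median was 0.01. The shift of Rpl41 and of the stalk proteins Rplp0 and Rplp2 within the family was thus seen against both other classes. It did not extend to the stalk protein Rplp1, which was called on this scale against neither class. Rplp1 held 3.51% and 3.53% of the ribosomal protein UMIs of globin-dominated barcodes, against 3.49% and 3.78% in mt-rich barcodes. Per remaining UMI, Rplp1 was called lower in globin-dominated than in mt-rich barcodes.

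By subunit, 13 of 48 tested large subunit genes were higher and 9 lower in globin-dominated than in other barcodes per remaining UMI, with a median log2 fold change of 0.62. For the small subunit it was 6 and 8 of 33, with a median of -0.18. Over all genes tested 3.96% were called higher and 78.8% lower, with a median of -5.25, below that of either subunit. Summed, large subunit genes stood at 223 and 238 per 10000 remaining UMIs in globin-dominated against 94.4 and 88.6 in other barcodes, and small subunit genes at 89.1 and 94.2 against 71.6 and 69.1. In mt-rich barcodes the sums were 598 and 547 for the large and 491 and 443 for the small subunit. The large subunit was thus the larger sum in every library and class, but it also has more genes, 52 against 33. In globin-dominated barcodes Rpl41 alone gave 66.0 and 65.1 of its sum. Per UMI of all genes 0 members were called higher in either comparison.

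Of the 19 Diamond-Blackfan anaemia genes, all tested, 3 were higher (Rps29, Rpl35 and Rps15a) and 2 lower (Rps27 and Rpl18) in globin-dominated than in other barcodes, where 3.96% of all genes tested were called higher and 78.8% lower. Rps19, the gene most often affected in the disease, stood at 1.23 and 1.44 against 2.84 and 3.23 per 10000 remaining UMIs (log2 fold change -1.18, edgeR unadjusted p = 0.0417, adjusted p = 0.0504) and was not called. Relative to the rest of the family Rps19 fell (-2.17, edgeR adjusted p = 0.000575). Rpl5 and Rpl11, which hold the p53 regulator Mdm2 when free of the ribosome, gave -0.57 and -0.36 and were not called. In mt-rich against other barcodes 17 of the 19 were called higher per remaining UMI, beside 65 of the 81 ribosomal protein genes and 2.17% of all genes tested. Per UMI of all genes 0 of the 19 were called higher in either comparison.

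Paralogs, copies that take the place of a ribosomal protein in some tissues or conditions, were scarce. Of 8 in the files, Rpl10l and Rpl39l had 0 UMIs in every sum, Rpl3l had 2 and Rpl7l1 had 7, all of them in other barcodes and below the filter of 10. The 4 tested were Rpl22l1, Rpl36al, Rps27l and Rps27rt. Rpl22l1 had 2 and 1 UMIs in globin-dominated, 4 and 8 in mt-rich and 5 and 15 in other barcodes, and was called lower in globin-dominated than in other barcodes at 0.120 times the level over both libraries (exact 95% counting interval 0.0228 to 0.405, edgeR adjusted p = 0.0208). Of the 15 UMIs in replicate 2, 13 came from 6 barcodes with mesothelial or epithelial markers, and in replicate 1 that was 2 of 5. Rpl36al had 1 and 6 UMIs against 18 and 14 in other barcodes, 0.175 times the level (0.0652 to 0.404, edgeR adjusted p = 0.0130), and missed the threshold without the barcode with most ribosomal protein UMIs in each sum (edgeR adjusted p = 0.0531). Rps27l (13 of its 16 UMIs in other barcodes) and Rps27rt were not called. Rps19bp1 had 2 UMIs.

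Some members have near-identical copies to which reads may be split. At 95% identity or more over at least 300 bases, 12 members had such a feature in GENCODE M21, so their counts are uncertain. For Rpl41 it was Gm10076, with 122 and 138 UMIs in globin-dominated barcodes, 3 and 5 in mt-rich and 8 and 3 in other barcodes, against 2460 and 1850 of Rpl41 itself. Rplp2 shares sequence with Wdr89 (14 UMIs in all), Rpl35 with Gm2000 (41), Rpl21 with BC004004 (21), Rpl10 with Rpl10-ps3 (12), and Rps27 with Rps27rt (11), which is itself a member. Beside the counts of these members the copies were few, least so for Rpl35, which had 268 UMIs. The reverse held for Rps27rt, whose copy Rps27 had 232 UMIs against its own 11. Copies of Rps18, Rpl29 and Rps4x had 0 UMIs.

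The share of barcodes with a ribosomal protein UMI differed between the classes, and so did depth. A ribosomal protein UMI was found in 472 of 474 and 372 of 373 globin-dominated barcodes (99.6% and 99.7%), in 82.8% and 87.0% of mt-rich and in 96.4% and 77.0% of other barcodes. The share of barcodes holding other genes of like level was not computed, so these shares have no background beside them. Median depth was 5979.5 and 6048 UMIs in globin-dominated, 765 and 799 in mt-rich, and 1482 and 946 in other barcodes. In replicate 2, other barcodes were deeper than mt-rich barcodes by this median, but a smaller share of them held a ribosomal protein UMI. The median number of ribosomal protein genes per barcode was 11 and 11, 3 and 3, and 10.5 and 2. With every barcode thinned to 500 UMIs it was 1 and 1 in globin-dominated, 2 and 2 in mt-rich and 4 and 1 in other barcodes. Thinned instead to 50 remaining UMIs, it was 1 and 1, 4 and 4, and 0 and 0, leaving out 263 of 366 and 179 of 285 mt-rich barcodes and 0 and 1 globin-dominated ones. The order of the classes thus depends on which UMIs are held equal, as it did for the sums.

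Rpl41 was found in 86.1% and 85.0% of globin-dominated barcodes, 9.02% and 12.6% of mt-rich and 35.7% and 19.9% of other barcodes, without thinning. Rplp0 was found in 56.1% and 51.7% of globin-dominated, and Rpsa in 9.28% and 8.85% of them but in 40.5% and 18.8% of other barcodes. Rpl14 was found in 0.633% and 0.804% of globin-dominated barcodes, 3.55% and 5.61% of mt-rich and 18.5% and 7.33% of other barcodes. Globin-dominated barcodes thus held Rpl14 least often, with a median of 721 and 688 remaining UMIs, above the 32 and 33 of mt-rich barcodes and below the 1085 and 696 of other barcodes.

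Within the globin-dominated class the share moved with haemoglobin content and depth. In barcodes with 50 to 90% haemoglobin, ribosomal protein genes made up 2.29% and 2.22% of the remaining UMIs, and in those with at least 90% they made up 4.71% and 5.05%. Of all UMIs the order was the opposite, 0.395% and 0.395% against 0.323% and 0.312%. From the shallowest to the deepest quartile of barcodes the share of remaining UMIs was 1.65, 2.15, 3.50 and 4.53% in replicate 1 and 1.54, 2.00, 3.34 and 5.34% in replicate 2. Gm42418 ran the other way over the quartiles, from 57.8 to 36.0% and from 54.9 to 32.4% of the remaining UMIs, and its part in the result was not tested. Without Gm42418 the ribosomal protein share still differed, at 4.92% and 4.51% with 50 to 90% haemoglobin and 7.55% and 7.67% with at least 90%.

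The make-up changed less than the share. Rpl41 held 19.4% and 16.7% of the ribosomal protein UMIs at 50 to 90% haemoglobin and 22.7% and 21.6% at 90% or more. Rplp1 held 3.20% and 2.95% against 3.80% and 3.94%. In the opposite direction Rpsa held 0.590% and 0.594% against 0.314% and 0.306%, and Rpl13 held 3.84% and 3.62% against 3.12% and 3.27%. Rplp2 (4.97% and 5.19% against 4.68% and 4.77%) differed little. These splits were described and not tested.

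**Figure D4:**
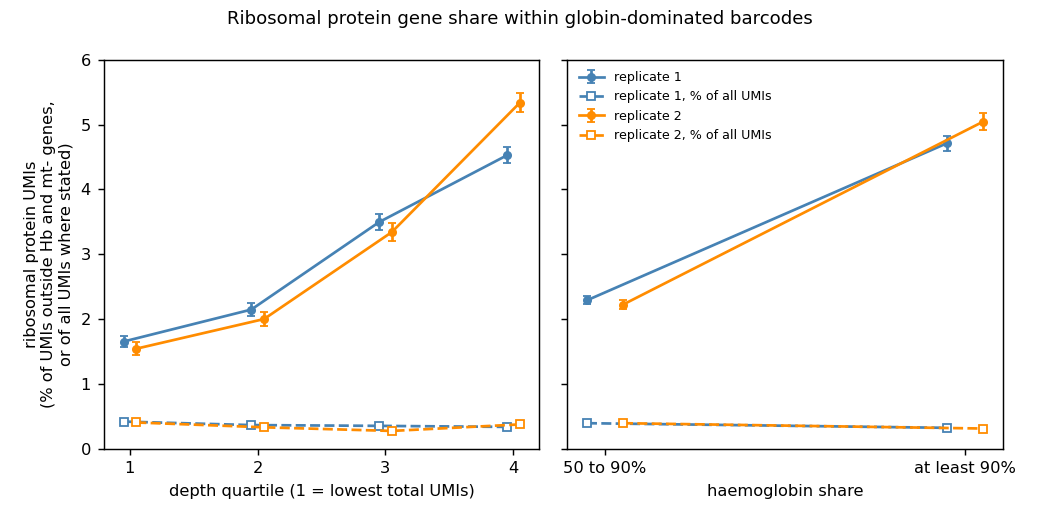
Ribosomal protein UMIs in globin-dominated barcodes as a percent of the UMIs outside haemoglobin and mt- genes (filled, bars are exact 95% counting intervals) and of all UMIs (open squares), by quartile of depth (left) and by haemoglobin share (right), for each replicate. The share of UMIs outside haemoglobin and mt- genes was 1.65% and 1.54% in the lowest quartile and 4.53% and 5.34% in the highest, while the share of all UMIs was 0.420% and 0.406% in the lowest and 0.338% and 0.376% in the highest.

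The other class was mixed, and its ribosomal protein share differed between barcodes with different markers. Each of its barcodes was given to the marker list with most UMIs, if that list had at least 3 UMIs and no tie. The red cell list was left out of this choice. Mesenchymal-marker barcodes (19 and 21) had 2.34% and 2.28% of their remaining UMIs in ribosomal protein genes. Leukocyte-marker barcodes (88 and 9) had 1.88% and 0.975%, and platelet-marker barcodes (17 and 22) had 0.860% and 0.608%. Barcodes with no such list (33 and 132) had 0.981% and 0.490%, and Gm42418 made up 49.5% and 68.8% of their remaining UMIs. Mesothelial or epithelial-marker barcodes (11 and 6) differed most between the replicates, 0.702% and 3.43%. The make-up of the class thus differed between the libraries, which held 88 and 9 leukocyte-marker barcodes.

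A few barcodes carried much of this. In replicate 2 a barcode with 12224 UMIs, 4130 detected genes and UMIs in 81 of the 86 genes held 1000 of the 3619 ribosomal protein UMIs of the other class (27.6%), but 5.18% of its remaining UMIs. It was also 1000 of the 1130 ribosomal protein UMIs of the mesothelial or epithelial-marker barcodes. In replicate 1 the leading barcode held 349 of 4921 (7.09%). In the mesenchymal-marker sets the leading barcode held 340 of 1024 and 786 of 1803. Without the leading barcode of each sum, the log2 ratio of the share of remaining UMIs to other barcodes was 1.20 for globin-dominated and 2.91 for mt-rich barcodes, where it was 0.99 and 2.68 with it. The split of calls for globin-dominated against other barcodes was then 20 higher and 15 lower. Doublets were not called or removed.

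Rpsa, the leading gene of the class, held 102 of 3204 ribosomal protein UMIs in leukocyte-marker, 54 of 1024 in mesenchymal-marker and 18 of 105 in platelet-marker barcodes of replicate 1. In replicate 2 it held 6 of 148, 74 of 1803 and 7 of 61. Rpl41 held 76, 41 and 10 UMIs in the same sets of replicate 1 and 4, 37 and 7 in replicate 2. Rpl14 had 25 UMIs in leukocyte-marker and 20 in mesenchymal-marker barcodes of replicate 1, and 0 and 21 in replicate 2, with 0 in platelet-marker barcodes of either. The numbers are too small for an order of the sets by single genes.

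**Figure D5:**
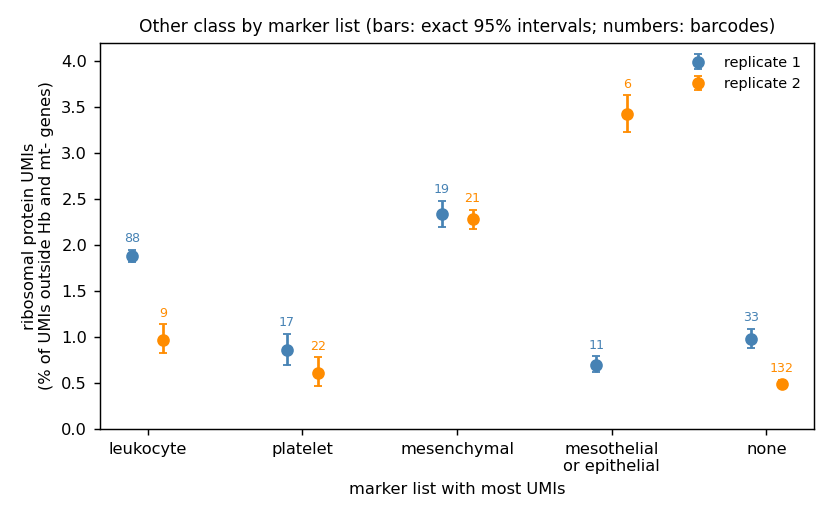
Ribosomal protein UMIs of barcodes in the other class as a percent of the UMIs outside haemoglobin and mt- genes, by the marker list with most UMIs, for each replicate; bars are exact 95% intervals that cover counting error only, and the numbers give barcodes. Mesenchymal-marker barcodes were at 2.34% and 2.28%, and the mesothelial or epithelial set was at 0.702% and 3.43%, the latter with 1000 of 1130 UMIs from 1 barcode.

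Other genes of translation, which the naming rule leaves out, did not all follow the members. Fau, which encodes a ribosomal protein fused to a ubiquitin-like protein, was lower in globin-dominated than in other barcodes per remaining UMI (0.859 and 1.27 per 10000 against 5.06 and 2.96, log2 fold change -1.94, edgeR adjusted p = 0.00272), and Rack1, a signalling scaffold on the small subunit, was not called. Both globin-dominated sums of Fau lay below both sums of other barcodes. Of 12 elongation factors and other transcripts of the TOP class, 3 were higher and 4 lower. Over all genes tested 3.96% were called higher and 78.8% lower. Pabpc1, the cytoplasmic poly(A)-binding protein, stood at 105 and 102 against 4.96 and 12.2 (log2 fold change 3.71), and Tpt1, a translationally controlled protein, at 70.9 and 71.5 against 6.14 and 6.84 (3.45). Eef1a1, the main elongation factor, stood at 2.58 and 3.10 against 5.80 and 6.76 and was not called (-1.15, edgeR adjusted p = 0.0524).

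Of 29 initiation factors tested, 3 were higher in globin-dominated than in other barcodes and 19 lower (DESeq2 called 3 and 9). The 3 were Eif5 (21.2 and 22.8 per 10000 remaining UMIs against 2.36 and 4.71), Eif1 (14.9 and 11.5 against 2.23 and 2.44) and Eif3k (1.85 and 2.22 against 0.236 and 0.392), of which Eif1 and Eif5 act together in the choice of the start codon. Ribosome biogenesis genes were lower, 11 of 14 tested and 0 higher by edgeR, also at an unadjusted p under 0.05, but 1 lower by DESeq2, led by nucleolin, Ncl, with 1 and 0 UMIs against 44 and 39. For ribosome rescue and quality control it was 8 lower and 1 higher of 10 (DESeq2 2 and 1). The exception was Ube2o, a ubiquitin ligase that marks unassembled ribosomal proteins in reticulocytes for destruction, at 26.5 and 31.1 against 1.86 and 5.67 (log2 fold change 3.11, edgeR adjusted p = 2.29e-06). Stress control genes were lower in 10 of 13 and higher in 0 by edgeR, also at an unadjusted p under 0.05, and lower in 5 by DESeq2. Larp1, a repressor of TOP mRNAs, had 0 and 1 UMIs against 70 and 20, and the integrated stress response factor Atf4 had 7 and 5 against 36 and 31. These shares of lower genes lie near the 78.8% called lower over all genes tested. Of 18 tested mitochondrial ribosomal protein genes 10 were lower and 1, Mrpl32, was higher (DESeq2 4 and 0).

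For these genes mt-rich barcodes were also set against other barcodes, where 2.17% of all genes tested were called higher and 0.162% lower. Fau (17.5 and 27.6 against 5.06 and 2.96), Tpt1 (43.1 and 41.3 against 6.14 and 6.84), Eef1a1 (23.1 and 26.2 against 5.80 and 6.76) and Naca were higher per remaining UMI, and so was Eif1. Tpt1, Eef1a1 and Naca were 3 of the 12 elongation factors and other TOP transcripts. Eif5 was called lower, with 0 UMIs in both mt-rich sums (edgeR adjusted p = 0.0167). Of the ribosome biogenesis, rescue, stress and mitochondrial ribosomal protein lists edgeR called 0 genes in either direction, DESeq2 also 0, and the unadjusted p was under 0.05 for 2 stress genes, both lower. The nuclear transcript Malat1 stood at 43.1 and 12.5 per 10000 remaining UMIs in mt-rich, 354 and 180 in other and 1.88 and 0.0704 in globin-dominated barcodes, and its part in the results was not tested.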

How the data were processed

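Each library was deposited as a matrix of UMI counts, whole numbers with no normalization. Cell Ranger 7.1.0 and Seurat 5 were named with the build mm10, per the submitters' processing notes. The treatment of intronic reads, the calling of barcodes and the removal of doublets are not given in the sources used here. No barcode was left out here: all 1857 entered, the shallowest with 500 and 501 UMIs, and totals were 3967318 and 3329292 UMIs.

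UMIs were summed per barcode class and library. Haemoglobin (8 Hba- and Hbb-) and mt- (13) genes were taken out, because they define the classes, and the remaining UMIs were the library size. The fit was edgeR 4.0.16 in R 4.3.3 (quasi-likelihood test, genes with at least 10 UMIs over the 6 sums, no scaling factor, Benjamini-Hochberg, threshold 0.05), with the library as a block, since the sums of a replicate number come from the same library. DESeq2 1.42.0 was an alternative. The script was tested on simulated data. Intervals are exact (Clopper-Pearson) at 95%, floors are 3 UMIs, and both cover counting error only. Thinning was drawn once with a fixed seed. Gene models were of GENCODE M21 and start sequences of RefSeq.

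The members, lists and tests were chosen with earlier results of these data known. Genes were named by rule: the 10 members with most UMIs, up to 6 members with the largest positive and up to 6 with the largest negative log2 fold change per comparison among those with at least 20 UMIs, the stalk genes, the paralogs, and from each related list up to 4 genes with most UMIs and genes called against the members' median. Rpsa, Rps19, Rpl5, Rpl11, Rpl21 and members listed only as called were named after their values were seen. Some genes are not reported here by name or drawn in the plot of fold changes, but they stay in the counts.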

Additional observations from a re-analysis of the deposited data

How the results depend on the processing

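Counts of members called depended on the scaling and, in the comparisons with mt-rich barcodes, also on the minimum number of genes per barcode. In globin-dominated against other barcodes, 19 higher and 17 lower became 0 and 72 per UMI of all genes, 45 and 0 with TMM factors, 48 and 1 with RLE factors, 24 and 11 without Gm42418, 29 and 15 with a haemoglobin limit of 70%, 12 and 16 with no filter, and 6 and 30 with the ribosomal protein UMIs as library size. In mt-rich against other barcodes, 65 and 0 became 0 and 32 per UMI of all genes, 0 and 0 with TMM factors, 9 and 0 with RLE factors, 40 and 0 without Gm42418, 0 and 0 with at least 100 genes per barcode, and 0 and 0 with the ribosomal protein UMIs as library size. In globin-dominated against mt-rich barcodes, 0 and 53 became 1 and 32 per UMI of all genes, 1 and 1 with TMM factors, 4 and 7 with RLE factors, 1 and 12 with at least 100 genes, 3 and 22 with the ribosomal protein UMIs as library size, and 1 higher with DESeq2, the haemoglobin limit of 70% and an mt- limit of 50%. Without the replicate block the splits were 15 and 18, 57 and 0, and 0 and 53, within 1.5 times of those with it. The cause of these changes was not tested.

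The log2 ratio of the summed share of globin-dominated to other barcodes, 0.99, was -1.90 of all UMIs, 1.44 without Gm42418, 0.80 with at least 100 genes, 1.22 with the 70% limit, 1.20 without the leading barcode of each sum and 0.71 without Rpl41. That of mt-rich to other, 2.68, was -1.24, 2.47, 1.95, 2.76 and 2.91 under the first 5 of these and 2.39 with the mt- limit of 50%. That of globin-dominated to mt-rich, -1.69, was -0.66 of all UMIs, -1.03 without Gm42418, -1.15 with at least 100 genes, -1.36 with the mt- limit and -1.98 without Rpl41. The mean number of members detected per barcode at 500 UMIs, 1.70 in globin-dominated, 2.53 in mt-rich and 3.93 in other barcodes, was 3.13, 5.01 and 8.18 at 1000 UMIs and 13.7, 4.27 and 11.2 without thinning. At 500 UMIs other barcodes differed between the replicates (5.42 and 2.44), and in replicate 2 they lay below mt-rich barcodes (2.55). Thinning to 1000 UMIs left out 281 of 366 and 200 of 285 mt-rich and 54 of 168 and 107 of 191 other barcodes.

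Of 27 values of named members, tested under alternatives 351 times in all, 286 kept their side of the threshold, 43 lost the call, 12 gained it and 10 changed sign. A change of sign was counted only where the main or the alternative value was called, and a missing adjusted p counted as kept. Per UMI of all genes the changes of sign were, in globin-dominated against other barcodes, Rplp0 (-0.073), Rplp2 (-0.13), Rps29 (-0.36) and Rpl10 (-0.43). In mt-rich against other barcodes they were Rpl39 (-0.14), Rps7 (-0.22), Rpl34 (-0.23), Rps18 (-0.32) and Rpl30 (-0.39). With TMM factors Rps18 was 0.024 in globin-dominated against other barcodes. Leaving out a replicate leaves 1 library with no residual degrees of freedom, so it gave values and no test, and no direction changed. The 3 UMIs of Rpl22l1 and 6 of Rpl14 over both globin-dominated sums, and mt-rich sums with 1746 and 1509 ribosomal protein UMIs, limit what depth can show. The alternatives with the ribosomal protein UMIs as library size, without Rpl41 and without the leading barcode were chosen after seeing the data.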
